A study of Ogataea polymorpha NCYC 495 leu1.1 with 8 samples.

Results

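MPP1 (Hp27g360), ADR1 (Hp5g47), PIP2 (Hp24g760) and RAP1 (Hp16g154) are 4 transcription factor genes of the methylotrophic yeast Hansenula polymorpha, chosen by their identifiers among the 5999 gene probes of an Agilent array. Their transcripts were followed in strain NCYC 495 leu1.1, a leucine auxotroph, when cells left glucose for methanol. The methanol samples were taken 2 h after cells had been moved at an OD of 0.2 into fresh mineral medium with 0.5% methanol as the carbon source. The glucose samples were the late exponential cultures at 37°C and an OD of 2.3 from which the methanol cultures were inoculated. There were 4 independent cultures, and the methanol and the glucose RNA of each culture were hybridised together on 2 arrays with exchanged dyes (Cy3 and Cy5, a green and a red label), which gives 8 arrays. The carbon source, the fresh medium and the growth phase changed together at the shift and cannot be told apart in this design. All groups share 1 strain. The RNA came from whole cultures, so that fewer cells with a transcript and less of it per cell cannot be told apart. An array ratio compares equal amounts of labelled RNA, so that a change in total RNA per cell is not seen.

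Growth on methanol requires enzymes that are housed in peroxisomes and are repressed by glucose, so that a shift between these carbon sources is a question of transcriptional control. Mpp1 is a zinc cluster protein that in H. polymorpha controls genes of methanol metabolism and peroxisome formation. Adr1 of Saccharomyces cerevisiae is a zinc finger activator of genes that glucose represses, and its homolog in Pichia pastoris, Mxr1, is required for methanol genes. Pip2 of S. cerevisiae pairs with Oaf1 to switch on genes for fatty acid oxidation and peroxisome proliferation. Rap1 of S. cerevisiae binds telomeres and silent loci and activates genes for ribosomal proteins and glycolytic enzymes. The roles of the last 3 are thus known from other yeasts, and the gene names are those of the study's annotation.

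MPP1 and ADR1 rose on methanol, RAP1 fell, and PIP2 rose by an amount that stayed just under the 2-fold limit. The mean changes were 349-fold for MPP1, 20.7-fold for ADR1 and 1.96-fold for PIP2, while RAP1 was 3.15-fold lower on methanol. To be called, a gene had to change more than 2-fold in either direction with an adjusted p below 0.05 (limma, Benjamini-Hochberg over 5999 probes). It also had to reach an A-value of 6, the A-value being the log2 signal averaged over both dyes and all arrays. By this rule MPP1 and ADR1 were called up, as were 19.1% of all gene probes, and RAP1 was called down, as were 21.4%. Without the fold limit 38.7% of the probes were higher on methanol at an adjusted p below 0.05, PIP2 among them, and 36.6% were lower. The values below are processed signals, in arbitrary units after the scanner software's dye normalization. Signals of different probes are not on a common scale. Other probes enter only through the median gene probe of an array and through the ranking of spreads and separations.

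The carbon source labels were checked with 3 genes of methanol metabolism. AOX (alcohol oxidase), DHAS (dihydroxyacetone synthase) and FMD (formate dehydrogenase) were higher in the RNA labelled methanol on all 8 arrays, with log2 ratios of at least 1.80. In each channel 90.6% to 98.3% of probes stood well above background. Dye-swapped arrays had correlations of 0.982 to 0.985 across probes, which are not independent replicates. Culture 1 stood somewhat apart, with r between 0.894 and 0.934 to the others, against 0.968 to 0.978 among cultures 2, 3 and 4. None of the 16 spots of any of the 4 regulators was saturated or marked as an outlier (0 of each), and all 16 were well above background in both channels.

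The MPP1 probe gave processed signals of 105100, 11090, 32310 and 26590 in methanol cultures 1 to 4. In glucose cultures 1 to 4 the same probe gave 336, 40.6, 62.2 and 79.2. Every methanol value was far above every glucose value, and the lowest methanol signal was 33.0-fold above the highest glucose signal. Levels that did not overlap with methanol higher were found for 20.0% of all gene probes. Within both conditions culture 1 was by far the brightest and culture 2 the dimmest.

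The log2 ratio of MPP1, methanol over glucose, was 8.29, 8.09, 9.02 and 8.39 in cultures 1 to 4. The mean was 8.45 ± 0.40 (SD, n = 4; 95% confidence interval 8.03 to 8.86; adjusted p = 2.26e-06, limma). It was the highest of the 5999 mean ratios, and MPP1 ranked 2nd in culture 1 and 1st in cultures 2, 3 and 4. Single arrays placed it 1st or 3rd from the top.

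The size of this ratio rests on a dim denominator. The unprocessed glucose signal of MPP1 was 1.60 to 20.0 times the local background of its spot, whereas the methanol signal was 200.0 to 3060 times the background. With a different background treatment (normexp with an offset of 50, followed by loess) the log2 ratio was 7.77, and it was 7.93 with loess alone. The direction and the call were the same under both.

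ADR1 was already far above background on glucose, with unprocessed signals of 83.4 to 711 times the background. Its processed signals were 214100, 123500, 150500 and 220600 in methanol cultures 1 to 4, against 16720, 9345, 5806 and 5270 in glucose cultures 1 to 4. The methanol and glucose values did not overlap, with a gap of 7.39-fold between the lowest methanol and the highest glucose signal. The glucose level was highest in culture 1 and lowest in culture 4, a spread of 3.17-fold, while the methanol levels lay within 1.79-fold of each other.

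The ADR1 log2 ratios were 3.68, 3.72, 4.70 and 5.39 in cultures 1 to 4, which correspond to 12.8-, 13.2-, 25.9- and 41.9-fold rises. Their mean was 4.37 ± 0.82 (SD, n = 4; 95% confidence interval 3.61 to 5.13; adjusted p = 6.27e-05, limma). The rise was present in 4 of 4 cultures, but its size differed more between cultures than that of most genes. Only 4.18% of the 5478 probes with an A-value of at least 6 had a larger SD. These probes were not matched for the size of the change. Among raised genes the SD was 0.24 for FMD and 1.53 for AOX. ADR1 ranked 107th of 5999 by its mean ratio, and between 161st in culture 1 and 42nd in culture 4.

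The cultures with the smaller ADR1 rise and those with the larger rise lay in different rows of arrays on the slide. Cultures 1 and 2 were in the first row and averaged 3.70, and cultures 3 and 4 were in the second row and averaged 5.04. The difference of 1.34 between the second and the first row did not pass the adjustment over all probes (adjusted p = 0.487, limma, n = 2 cultures per row; 0 probes passed and 580 had an unadjusted p below 0.05). Within each row ADR1 was past the 2-fold limit. Culture and array row cannot be told apart for these differences between cultures.

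PIP2 gave processed signals of 32380, 17410, 14340 and 23930 in methanol cultures 1 to 4. The glucose signals were 17550, 9355, 6280 and 12700 in cultures 1 to 4. Here the ranges overlapped, because methanol cultures 2 and 3 were dimmer than glucose culture 1, although in each culture the methanol signal was the higher. The brightness of whole arrays moved with these values, since the median signal of all gene probes was 2989, 1978, 1644 and 2840 in methanol cultures 1 to 4, against 3046, 2040, 1693 and 2952 in glucose cultures 1 to 4. Divided by the median of their own channel and array, the PIP2 levels were 10.8, 8.78, 8.69 and 8.43 in methanol cultures and 5.72, 4.57, 3.71 and 4.32 in glucose cultures, and no longer overlapped, as for 36.8% of all probes with methanol higher.

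In log2 terms the PIP2 ratio was 0.88, 0.90, 1.19 and 0.91 in cultures 1 to 4. The mean of 0.97 ± 0.15 (SD, n = 4; 95% confidence interval 0.72 to 1.22) differed from 0 with an adjusted p of 0.000296 (limma), and all 4 cultures showed the rise. Only culture 3 was past the 2-fold limit, and the interval includes it, so that PIP2 lay at the limit rather than clearly on either side. A test against the 2-fold limit itself (limma's treat) gave an adjusted p of 1. The ratio was 1.00 without culture 1, 1.03 on the arrays with methanol in Cy3 alone and 1.05 in the second row of arrays alone, all just past the limit. PIP2 was more even between cultures than most genes, 78.1% of which had a larger SD.

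RAP1 was the member that fell. Its processed signals were 3478, 3796, 3074 and 5214 in methanol cultures 1 to 4, against 16810, 9696, 9277 and 13770 in glucose cultures 1 to 4. All methanol values were below all glucose values, with the lowest glucose signal 1.78-fold above the highest methanol signal. Such a separation with methanol lower was found for 21.8% of all gene probes.

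The log2 ratios of RAP1 were -2.27, -1.35, -1.59 and -1.40 in cultures 1 to 4. They averaged -1.66 ± 0.42 (SD, n = 4; 95% confidence interval -2.09 to -1.22; adjusted p = 0.000306, limma), and the fall exceeded 2-fold in 4 of 4 cultures. The fall was deepest in culture 1, at 4.83-fold, against 2.55- to 3.02-fold in the other cultures. Without culture 1 the mean was -1.45. Counted from the lowest ratio, RAP1 ranked 802nd of 5999, so that 13.4% of the probes fell further.

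**Figure D1:**
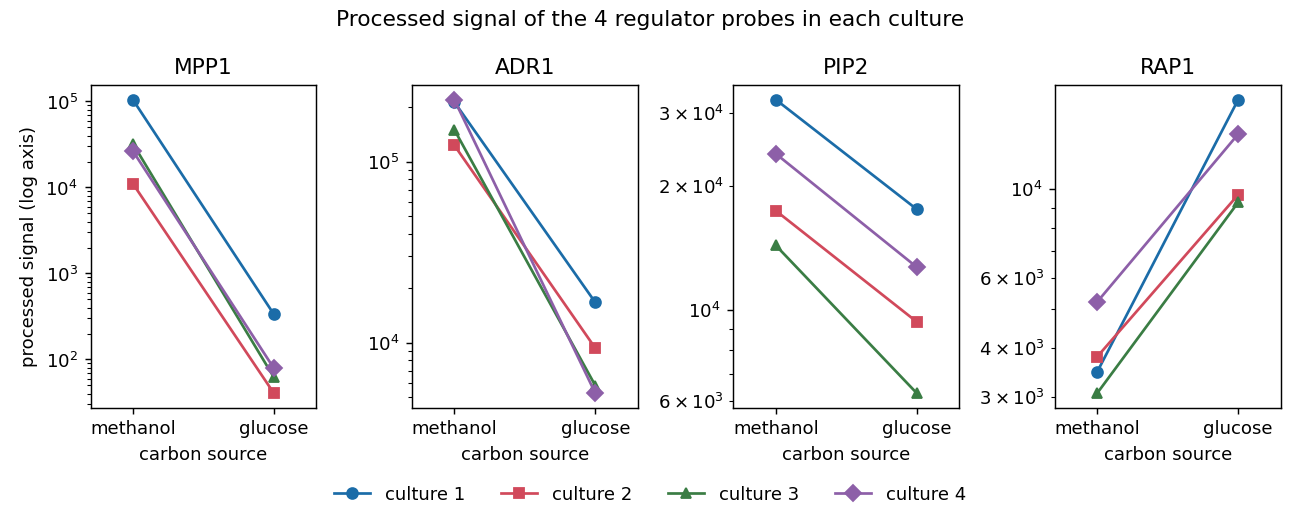
Processed signal (log axis, arbitrary units, a separate scale in each panel) of the 4 regulator probes in methanol and glucose samples, with a line for each of the 4 cultures. MPP1 and ADR1 lines drop steeply towards glucose (lowest methanol signals 11090 and 123500, highest glucose signals 336 and 16720), PIP2 lines are shallow and parallel, and RAP1 lines run the other way.

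The spread between cultures was set beside that of all probes in each condition. With each level divided by the median gene probe of its channel and array, MPP1 had 35.2, 5.59, 19.6 and 9.37 times the median in methanol cultures 1 to 4, against 0.109, 0.0198, 0.0367 and 0.0270 times the median in glucose cultures 1 to 4. The cultures thus spread 6.29-fold on methanol and 5.52-fold on glucose, with culture 1 highest and culture 2 lowest in both. The SDs were 1.17 log2 units on methanol and 1.07 on glucose, which 0.767% and 0.164% of the 5478 probes exceeded. These probes were kept by an A-value averaged over both conditions and were not matched for their glucose signal. The SD of the MPP1 ratio, 0.40, was smaller than the SD of its level in either condition. After loess and Aquantile scaling between arrays, the cultures spread 5.92-fold on methanol and 3.30-fold on glucose. Glucose cultures 2 and 4 were then alike, at 115.6 and 115.7. The glucose signals of cultures 2 to 4 were only 1.60 to 7.16 times the background, so that their spread is uncertain.

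ADR1 diverged more on glucose than on methanol. Its level over the array median had an SD of 0.23 log2 units in methanol cultures, close to the median of 0.23 over the 5478 probes. In glucose cultures the SD was 0.70, against a median of 0.18 over the same probes, of which 1.28% had a larger one. The glucose levels were 5.44, 4.57, 3.43 and 1.79 times the array median in cultures 1 to 4. This order, from high to low, is the reverse of that of the ratios, in which the glucose level is the denominator.

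Relative to the array median, RAP1 diverged more on methanol than on glucose, with SDs of 0.34 and 0.13 log2 units. Before this scaling the order was the other way, at 0.33 on methanol and 0.41 on glucose. RAP1 had 1.16 times the array median in methanol culture 1 and 1.91, 1.86 and 1.84 times the median in methanol cultures 2, 3 and 4. In the glucose cultures it stayed between 4.69 and 5.48 times the median, above every methanol value, a separation seen for 32.7% of all probes with methanol lower. The scaled SD on glucose was exceeded by 71.8% of probes, and that on methanol by 27.7%. On this scale the deeper fall of culture 1 lay in its low methanol level, and its glucose level was within the range of the other cultures. Before scaling this did not hold. The methanol signal of culture 1, 3478, was then above that of culture 3, 3074, and its glucose signal, 16810, was the highest. The scaled PIP2 levels had an SD of 0.17 log2 units on methanol, which 70.7% of probes exceeded, and of 0.26 on glucose, which 26.5% exceeded.

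**Figure D2:**
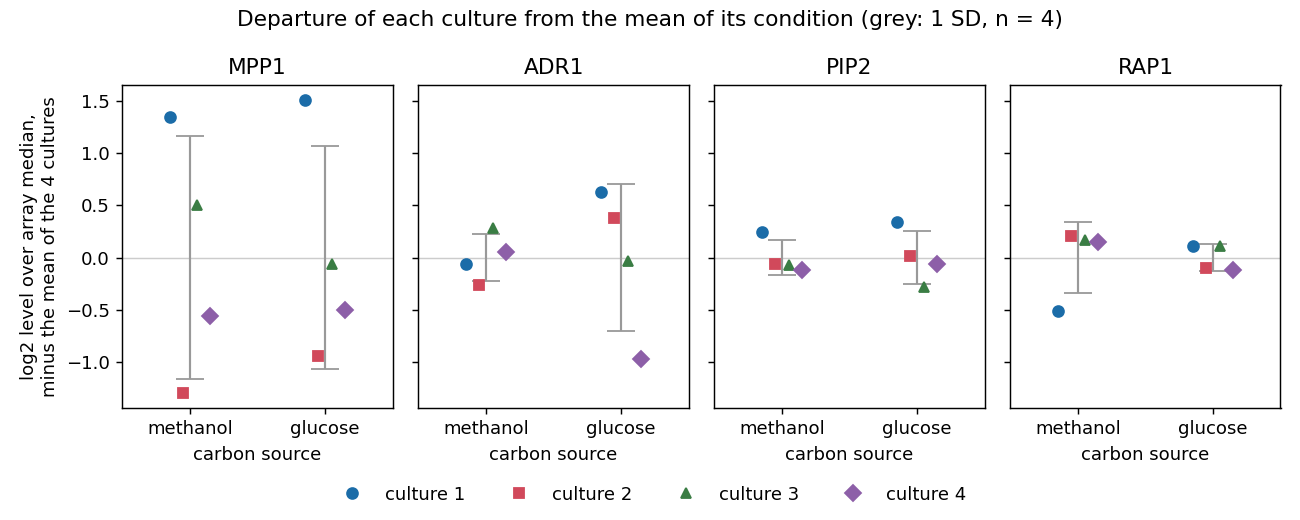
Departure of each culture's log2 level over the array median from the mean of the 4 cultures, in methanol and glucose samples, with grey bars of 1 SD (n = 4). The bars are long in both conditions for MPP1 (1.17 and 1.07), longer on glucose than on methanol for ADR1 (0.23 on methanol and 0.70 on glucose) and shorter for PIP2 (0.17 on methanol and 0.26 on glucose), and methanol culture 1 lies apart for RAP1.

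Since each culture was measured with methanol in Cy5 and again with methanol in Cy3, the ratios could be compared between labellings of the same RNA. MPP1 had log2 ratios of 9.00, 8.61, 9.70 and 8.84 in cultures 1 to 4 with methanol in Cy5, and 7.58, 7.58, 8.34 and 7.94 with methanol in Cy3. The 2 sets did not overlap. The mean difference was 1.18 ± 0.26 (SD, n = 4; adjusted p = 0.00269, limma), which amounts to a 525-fold rise with methanol in Cy5 and a 232-fold rise with methanol in Cy3. Differences in this direction at an adjusted p below 0.05 were found for 15.2% of all probes, and the median absolute difference was 0.13.

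Nearly all of the MPP1 difference lay in the glucose channel. The methanol level was 0.05 log2 units higher in Cy5 than in Cy3, whereas the glucose level was 1.13 log2 units higher in Cy5 than in Cy3. The glucose signal was 1.60 to 5.13 times the background with methanol in Cy5 and 4.02 to 20.0 times the background with methanol in Cy3. With normexp and loess the difference was 0.73 (adjusted p = 0.0113, limma).

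For ADR1 the log2 ratios were 3.86, 3.84, 4.84 and 5.59 in cultures 1 to 4 with methanol in Cy5, and 3.50, 3.61, 4.55 and 5.19 with methanol in Cy3. The difference was 0.32 ± 0.08 (SD, n = 4; adjusted p = 0.00608, limma) and had the same sign in 4 of 4 cultures. It was smaller than the differences between the cultures with the smaller and the larger rise. PIP2 had a difference of -0.12 ± 0.05 (SD, n = 4; adjusted p = 0.0527, limma) and was lower with methanol in Cy5 in all 4 cultures, and 21.1% of probes passed the test in that direction. Its mean log2 ratio was 0.91 with methanol in Cy5 and 1.03 with methanol in Cy3, on either side of the 2-fold limit. RAP1 had a difference of 0.01 ± 0.03 (SD, n = 4; adjusted p = 0.778, limma).

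**Figure D3:**
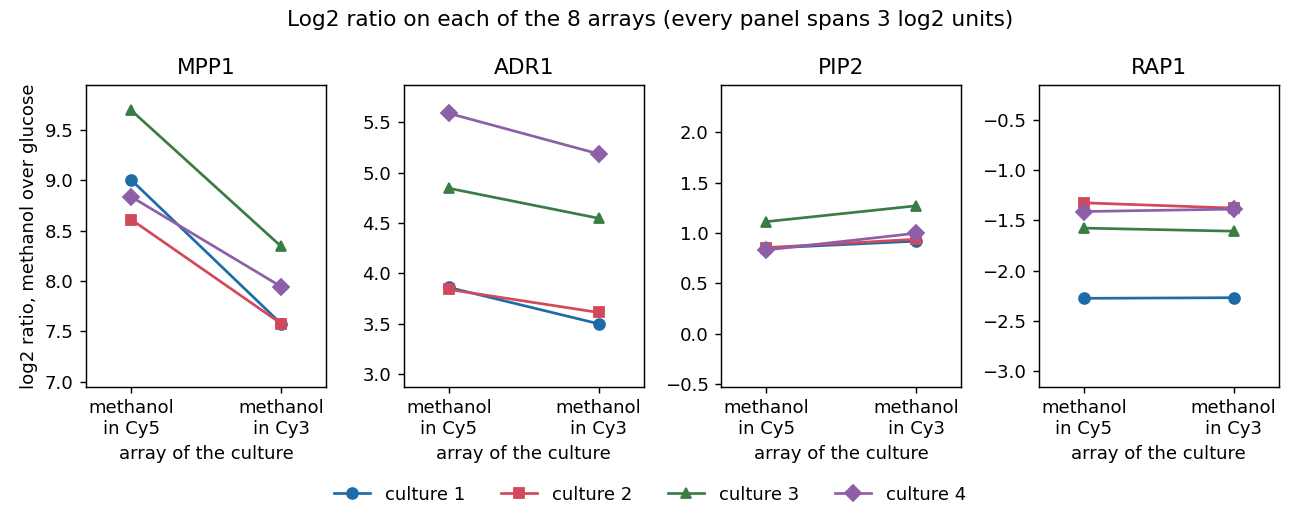
Log2 ratio of methanol over glucose on the array with methanol in Cy5 and on the array with methanol in Cy3, with a line for each of the 4 cultures and 3 log2 units in every panel. All MPP1 lines (mean difference 1.18) and all ADR1 lines (0.32) slope down, PIP2 lines slope slightly up, and RAP1 lines are flat.

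The ratios of the 4 regulators kept one order in every culture, from MPP1 through ADR1 and PIP2 to RAP1. MPP1 exceeded ADR1 by 4.08 ± 0.73 log2 units (SD, n = 4), with 3.00 as the smallest difference in a culture. ADR1 exceeded PIP2 by 3.40 ± 0.79, and PIP2 exceeded RAP1 by 2.63 ± 0.43. All 6 pairs were compared by an exact two-sided sign-flip test over the 4 cultures, and each gave p = 0.13 (0.13 after adjustment over the 6 pairs), which is the smallest p that 4 cultures allow. These comparisons concern ratios, since the levels of different probes are not on a common scale.

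**Figure D4:**
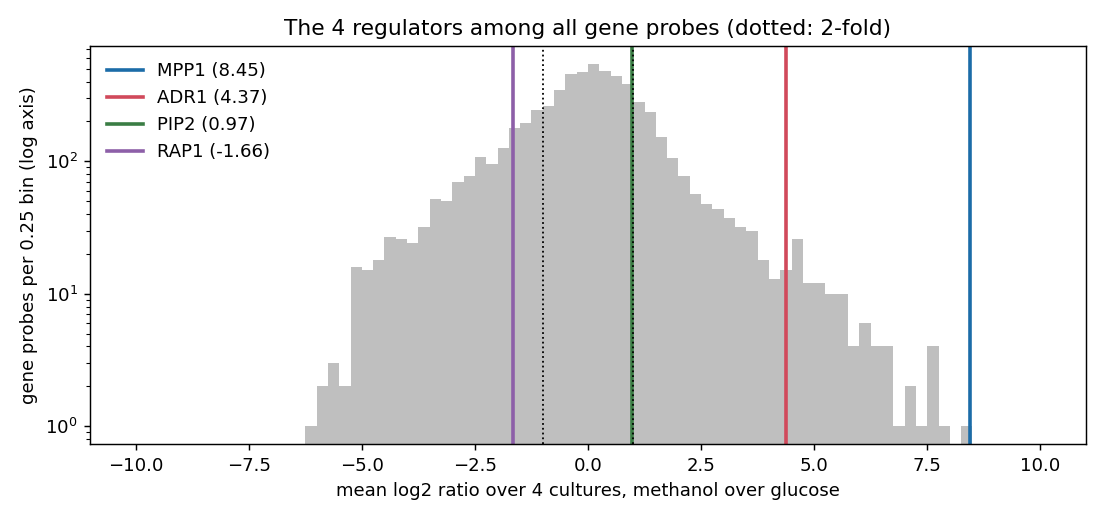
Histogram of the mean log2 ratio (methanol over glucose, 4 cultures) of 5999 gene probes on a log count axis, with the 4 regulators as coloured lines and the 2-fold limits dotted. MPP1 (8.45) marks the right end, ADR1 (4.37) lies in the upper tail, PIP2 (0.97) falls on the dotted line and RAP1 (-1.66) lies within the left flank.

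Probes with the most similar ratios in the 4 cultures were looked up for each regulator, by the root mean square difference of the 4 log2 ratios among probes with an A-value of at least 6. The closest to MPP1 was Hp16g114 (FMD), at 0.78 log2 units, followed by Hp24g666 at 0.86 and Hp27g562, with a beta-glucosidase of Candida molischiana as its best match, at 0.86. These are wide distances, because few probes had ratios so high. The ADR1 pattern was shared most closely by Hp6g284 at 0.28, Hp24g542 at 0.37 and Hp32g425, whose best match is a mitochondrial malate dehydrogenase of S. cerevisiae, at 0.45. Because neighbours were picked by these same 4 ratios, their likeness to ADR1 follows from the choice. In Hp6g284 cultures 1 and 2 were lower (4.07 and 4.12) than cultures 3 and 4 (4.73 and 5.35). The same held in Hp24g542 (3.46 and 3.60 against 4.54 and 4.70).

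PIP2 had nearer neighbours. They were Hp27g106 at 0.08, with Fab1 of S. cerevisiae as its best match, Hp9g140 at 0.09, which resembles a protease of the mitochondrial inner membrane, and Hp9g300 at 0.09. For RAP1 they were Hp27g37 at 0.09, Hp15g813 at 0.11 and Hp8g602 at 0.13. All 3 neighbours of RAP1 had their lowest ratio in culture 1 (-2.36, -2.42 and -2.09), which follows from picking them by these ratios. With 4 cultures such a likeness is a description of these samples.

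A further 5 genes annotated as regulators were examined. They were drawn from annotated genes with raised ratios, so that their direction is no independent evidence, and all 5 were called up. Hp32g289, whose best match is acu-15 of Neurospora crassa, an activator of genes for acetate use, had a log2 ratio of 5.64 ± 0.27 (SD, n = 4). Hp9g430 and Hp25g309 both resemble Cat8 of Candida albicans (in S. cerevisiae, Cat8 activates gluconeogenic genes), and had ratios of 5.23 ± 0.75 and 1.47 ± 0.18 (SD, n = 4). An SNF1-like protein kinase, Hp29g24, had 1.33 ± 0.15 and Hp12g335 (MUT3) had 1.06 ± 0.15 (SD, n = 4). With methanol in Cy5 alone, 4 were called and MUT3, at 0.97, was not. In S. cerevisiae the Snf1 kinase is needed to lift glucose repression. The ratio of ADR1 thus lay below those of Hp32g289 and Hp9g430 and above those of the other 3, and MPP1 lay above all 5.

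Gene lists chosen from the study follow. Of all probes 19.1% were called up and 21.4% down, with a median log2 ratio of 0.04. Control of the listed genes by the 4 regulators was not tested, and genes for ribosomal proteins were not among the lists. All 7 genes of methanol metabolism were called up, with a median of 3.43, from FMD at 7.83 down to FGH (S-formyl glutathione hydrolase) at 1.07. Among them AOX, DHAS and FMD had served to check the labels, so that their direction is no independent evidence. FGH was under the fold limit without culture 1 (0.86) and with methanol in Cy5 alone (0.93), which leaves 6 genes called. All 14 genes listed for fatty acid beta-oxidation, catalase being shared with the first list, were called up with a median of 4.47, from a mitochondrial carnitine carrier (Hp15g677) at 6.51 down to the adenine nucleotide transporter (Hp44g158) at 1.48. Neither list had a gene called down (0 of each). The study drew up the beta-oxidation list as a cluster of genes raised on these same arrays, so that its count is no independent evidence.

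Both PEX and autophagy genes included members that did not pass the limits. Of 25 PEX genes, which build peroxisomes, 12 were called up and 0 down, with a median of 0.79. They ranged between 2.25 for PEX32, which was called up, and -0.72 for PEX11C, which did not pass the fold limit. Of 27 autophagy genes 15 were called up and 1 down (ATG25, -2.14), with a median of 1.13 and ATG19-like highest at 2.69.

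In the glycolysis list, which includes pyruvate dehydrogenase subunits, 4 of 14 genes were called down and 0 up, with a median of -0.93. The share called down, 28.6%, was near the 21.4% of all probes. A link with the fall of RAP1 was not tested. The medians of cultures 1 to 4 were -2.31, -0.93, -0.39 and -0.13, and without culture 1 the median over the genes was -0.48. The lowest was hexokinase (Hp25g374) at -3.41, and aldolase (Hp47g1019) was the highest at 0.71 (adjusted p = 0.157, limma). Aldolase had -0.83, 0.67, 1.49 and 1.52 in cultures 1 to 4, and was called up without culture 1 (1.23) and with methanol in Cy5 alone (1.21). The number called down was 2 without culture 2 and 8 without culture 4, and by labelling it was 2 for methanol in Cy5 and 10 for methanol in Cy3. Of 3 genes of gluconeogenesis 2 were called up and 0 down, with a median of 2.13. Phosphoenolpyruvate carboxykinase was highest at 2.56, and pyruvate carboxylase was lowest at 0.90, under the fold limit, which it passed with methanol in Cy5 alone (1.04).

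**Figure D5:**
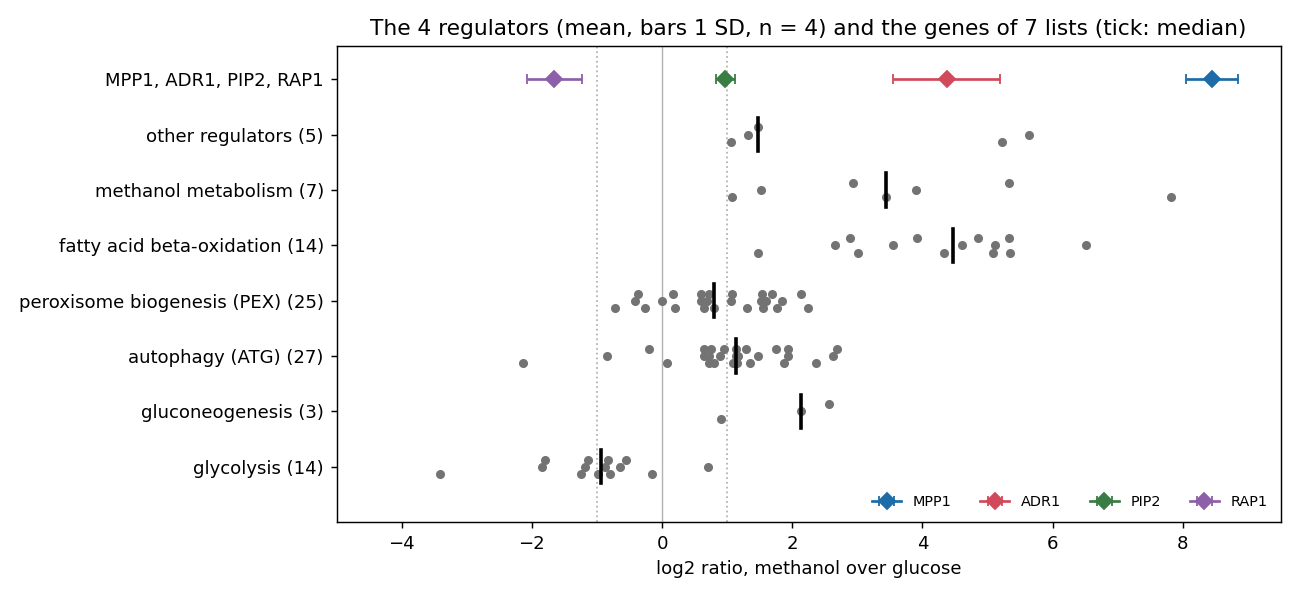
Log2 ratio of methanol over glucose for the 4 regulators (diamonds, bars of 1 SD, n = 4) and for each gene of 7 lists (grey points, black tick at the median, number of genes in brackets), with the 2-fold limits dotted. MPP1 (8.45) lies to the right of every listed gene, ADR1 (4.37) near the median of fatty acid beta-oxidation (4.47), PIP2 (0.97) near those of PEX (0.79) and autophagy genes (1.13), and RAP1 (-1.66) left of the glycolysis median (-0.93).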

How the data were processed

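Methanol and glucose RNA of 4 cultures was labelled with Cy3 and Cy5 and hybridised with exchanged dyes to 8 arrays. The authors deposited the output of Agilent Feature Extraction 9.5.3.1, in which the processed signal of each spot and dye is an intensity made without background subtraction but with a spatial detrend and a dye normalization. The paper names this background option. In culture 2 with methanol in Cy5, glucose spot 1 of MPP1 had a processed signal of 22.4 at 1.60 times the background. PIP2 spot 1 had 7460 at 204 times the background. These values are not in proportion, and whether the detrend removed an offset near background was not tested. The low glucose signals of MPP1 thus cannot be taken as wholly unsubtracted. A deposited table gives log10 ratios, turned to methanol over glucose, whose values stand 5 positions from their identifiers. Corrected for that shift, they served as an alternative. As depth has no meaning here, signal over background and the number of arrays limit the precision.

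Log2 ratios of processed signals were taken per spot without outlier spots, averaged over 2 spots and then over the 2 arrays of a culture (n = 4), and fitted with limma 3.58.1 in R 4.3.3 (intercept, empirical Bayes, prior of 2.81 degrees of freedom), with Benjamini-Hochberg adjustment over 5999 probes. The fit was tested on simulated data. Levels are means of log2 processed signals, written on the linear scale. Further software was data.table (version 1.17.8), pandas 2.3.3 and numpy 2.4.6 under Python 3.11.15, and matplotlib 3.10.9 for drawing.

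Numbers name a culture whose glucose and methanol RNA belong together, by the study's design, so each ratio is paired. Departures of the 2 channels from the mean of their condition, taken from different arrays of a culture, correlated across genes at 0.141 to 0.277.

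The genes named are the 4 regulators, the 5 other regulators, the highest and lowest gene of the lists for methanol metabolism, fatty acid beta-oxidation, PEX, autophagy, glycolysis and gluconeogenesis, the genes of the label check, and the 3 probes nearest to each regulator. The members and lists were chosen with earlier results of these data known. None of the identifiers matched the reference annotation (0 of 5999), so no positions are given. Alternatives were other background treatments and normalizations, centring, other sources and means of the ratio, each dye orientation or a dye term, spot filters, A-value limits, trend and robust moderation, treat, Cyber-T over 16 spots (window 101, prior weight 10), the array row, the channels with no replicate block and each culture left out. Array rows alone and levels over the array median were added after the data were seen.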

Additional observations from a re-analysis of the deposited data

Results flagged for a closer look

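The PIP2 log2 ratio of culture 3, at 1.19, stood apart from the ratios of the other 3 cultures, which lay between 0.88 and 0.91. The gap was 0.900 of the range, above Dixon's critical value of 0.83 for 4 samples. Of 12 sets of 4 values examined (ratio, methanol level and glucose level of each regulator) it was the only one past that value, and chance alone passes about 1 set in 20. The log2 ratio of MPP1 was higher with methanol in Cy5 than with methanol in Cy3 by 1.18, and that of ADR1 by 0.32, both by the tests of the difference given above.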

How the results depend on the processing

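The calls of MPP1, ADR1 and RAP1 were the same under every alternative run, with log2 ratios of 7.77 to 9.04, 3.70 to 5.04 and -1.81 to -1.45. The limits of ADR1 and the lower one of RAP1 come from single array rows, which give values with no test. PIP2 kept its sign but exceeded 2-fold with methanol in Cy3 alone (1.03), in the second array row alone (1.05) and without culture 1, with values of 0.90 to 1.00 when each culture was left out. The fit of the channels with no replicate block gave the same ratios (8.45, 4.37, 0.97 and -1.66) and changed no call, with an adjusted p of 0.0257 for PIP2 (limma). The gap between the lowest methanol and the highest glucose level of PIP2, -0.29 log2 units, was 0.50 after loess and Aquantile scaling and 0.56 over the array median. All dye orientation differences and all 6 pair differences kept their sign. Treat called 760 probes up, against 1145 of 5999 by the moderated test. For MPP1 the glucose signal near background limits the ratio. The precision of every comparison is that of 4 cultures.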
